A study of Mus musculus with 36 samples.

Results

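The chemokines described here are 10 secreted attractants of white blood cells, Cxcl1, Cxcl2, Cxcl9, Cxcl10, Cxcl12, Cxcl13, Cxcl16, Ccl2, Ccl6 and Ccl9, read from mouse liver on oligonucleotide arrays. They were chosen by gene symbol, as every probe other than a control probe that carried 1 of these symbols. This gave 10 of the 37325 genes on the array and 13 of its 56605 probes. Cxcl10, Cxcl12 and Cxcl16 had 2 probes each. All members except Cxcl2, 9 in number, were bright enough to be tested, among 24251 tested genes, and the probe of each of these 9 was well above background on all 36 arrays.

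RNA of male C57Bl/6J mouse livers was hybridised to 36 one-colour arrays in 6 groups of 6. AAKO mice lack ATGL, the lipase that starts triglyceride breakdown, in white adipose tissue, and CTRL mice are their controls. For each genotype, the first group was fed freely, the second was fasted for 24 h, and the third was fed and received the compound CL316243, which activates beta 3 adrenergic receptors and thereby releases fatty acids from fat cells. CL316243 was given once by gavage at 3 mg/kg in a carboxymethyl cellulose vehicle at ZT10 (Zeitgeber time, hours after lights on), and all mice were killed at ZT16. The way in which ATGL was deleted is not given in the sources used here. The labels put the fed groups in one experiment and the fasted and CL316243 groups in another, so in every comparison with fed mice the condition and the experiment cannot be told apart. Gavage is stated only for CL316243, and its effect cannot be told apart from that of the compound. The labels do not say outright that each replicate is a separate mouse, and p-values measure only the spread between these samples, which may be technical. Between 58.5% and 65.7% of probes were well above background per array.

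Chemokines act through receptors coupled to G proteins, and the names CXC and CC describe the spacing of the first cysteines of the protein. Cxcl1 and Cxcl2 attract neutrophils through Cxcr2. Cxcl9 and Cxcl10 are induced by interferons and attract T and NK cells through Cxcr3, and Ccl2 attracts monocytes through Ccr2. In the liver, chemokines are made by hepatocytes, by Kupffer cells (the resident macrophages), by sinusoidal endothelium and by stellate cells.

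The sequences just before the start of 3 of the genes are shown because these genes are classical targets of NF-kB and interferon signalling, and because Cxcl1 and Cxcl10 moved in opposite directions between genotypes after CL316243, as described below. They are from RefSeq on GRCm38.p6, read 5′ to 3′ along the gene, and capitals mark matches on either strand to an NF-kB type pattern (GGG, any 3 bases, TTCC) or to an interferon response type pattern (GAAA, any 2 bases, GAAA). The Cxcl1 stretch, chr5:90891125-90891214 on the plus strand, runs from base 120 to base 31 before the start. The Cxcl2 stretch, chr5:90903779-90903868 on the plus strand, covers the same distances. The Cxcl10 stretch, chr5:92348980-92349109 on the minus strand, runs from base 220 to base 91 before the start.
Cxcl1: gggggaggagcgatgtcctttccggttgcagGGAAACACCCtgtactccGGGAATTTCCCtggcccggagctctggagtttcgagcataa
Cxcl2: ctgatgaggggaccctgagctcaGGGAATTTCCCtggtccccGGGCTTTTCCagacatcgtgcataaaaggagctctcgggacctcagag
Cxcl10: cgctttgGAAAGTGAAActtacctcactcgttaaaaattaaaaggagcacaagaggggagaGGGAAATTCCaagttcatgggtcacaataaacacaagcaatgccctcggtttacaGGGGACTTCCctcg

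In total 9 patterns were searched on both strands in the 250 bases before the start, and all 9 were chosen after the expression values were known. RefSeq entries were found for 8 of the 10 members, and Cxcl16 and Ccl2 were not matched. The NF-kB type pattern was found before Cxcl1, Cxcl2, Cxcl10 and Ccl9, and before 4.65% of all 32851 starts. Both narrower forms of it, which overlap with it, were also searched. The form with any 2 bases and then TTTCC was found before Cxcl1, Cxcl2 and Ccl9 and before 1.41% of all starts, and the form that begins with GGGAA before Cxcl1, Cxcl2 and Cxcl10 and before 0.283% of all starts. The interferon response type pattern was found before Cxcl10 alone of the 8, first base 213 before the start, and before 2.98% of all starts. TATAA was found before Cxcl9, Cxcl13 and Ccl9 (22.8% of all starts), TGANTCA before Cxcl10 and Ccl9 (6.75%), and TTGCNNAA before Cxcl13 (9.56%). TTCNNNGAA (7.02% of all starts) and TGACGTCA (1.55%) were found before none of the 8. These matches describe letters in a window and were not tested against the expression values.

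Levels are log2 signals from which the 75th percentile of their own array was subtracted, so that 0 is that percentile, and levels of different genes are not compared. Differences between groups are log2 fold changes ± standard error from a limma fit over all 36 arrays with the wash batch as a term. A gene was called at a Benjamini-Hochberg adjusted p under 0.05 over all tested genes. The adjusted p-values below are from that fit unless another setting is named. Those of second probes are from the same model fitted on, and adjusted over, all probes that were bright enough. Those within a wash batch, without a liver or under another alternative are from the fit changed in that way.

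**Figure D1:**
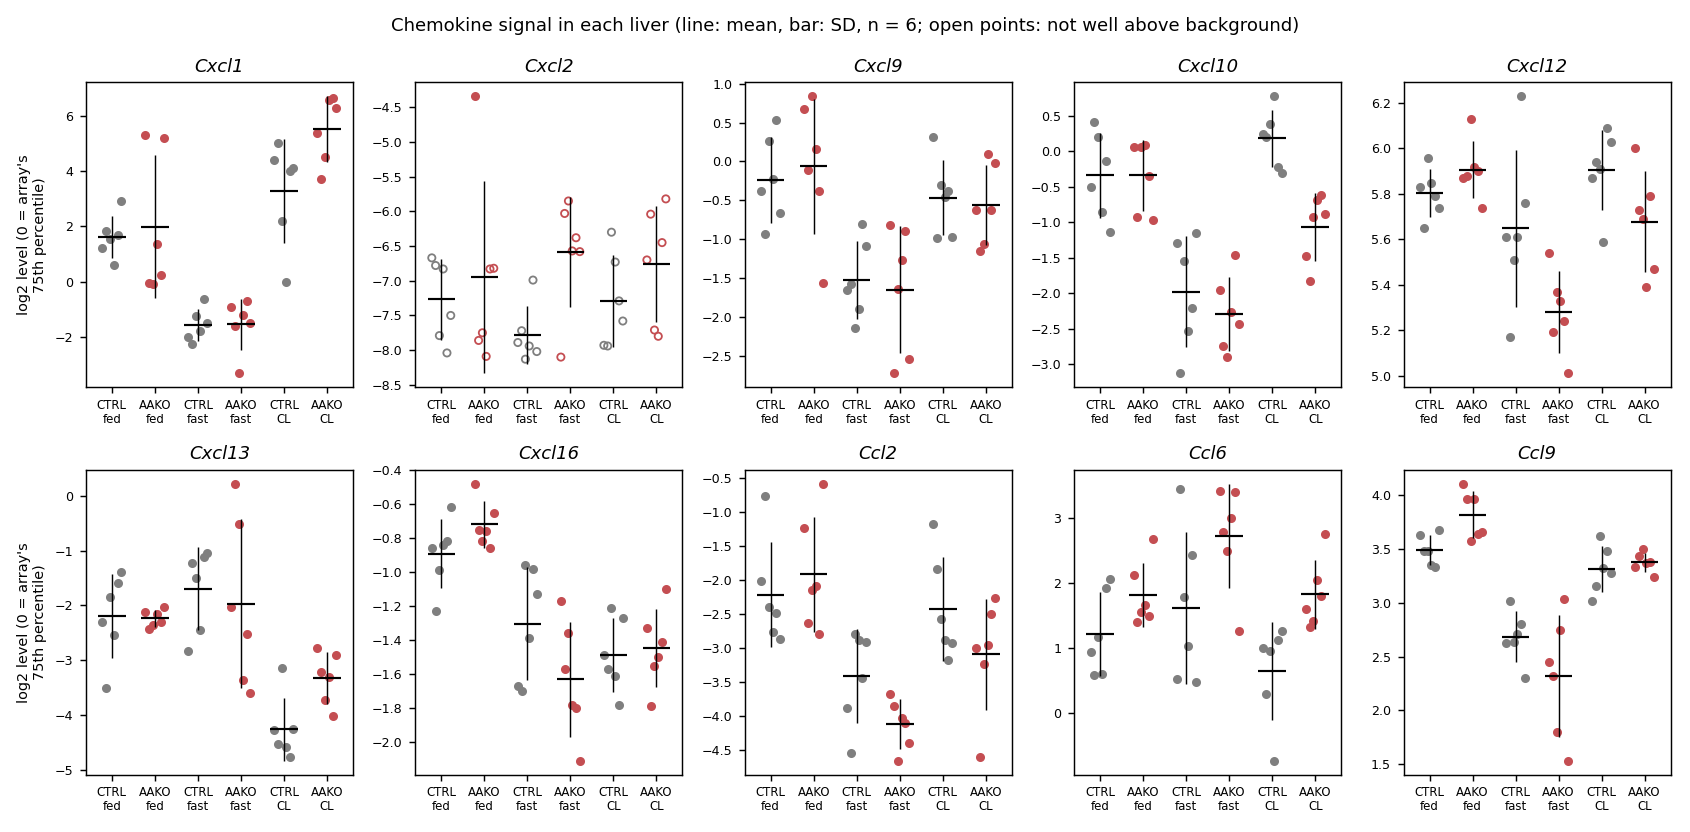
Level of each chemokine (y axis, log2 relative to the array's 75th percentile) in each of the 6 livers of each group (x axis), grey for CTRL and red for AAKO; lines are means, bars are SD, and open points are spots not well above background. All Cxcl1 values of fasted mice lie between -3.31 and -0.64, below every fed value, and 2 AAKO fed livers stand at 5.18 and 5.30.

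Most of the 9 tested members had lower RNA in fasted than in fed livers in both genotypes, while the differences of Cxcl13 and Ccl6 were above 0 in both. In CTRL mice 6 of the 9 tested members were lower in fasted than in fed livers and none was higher. Of all tested genes 43.2% were called there, 22.4% lower and 20.8% higher. In AAKO mice 7 of 9 were lower and 1 was higher, where 63.3% of all genes were called, 35.3% lower and 27.9% higher. Fasted and fed values did not overlap for 3 of 9 members in CTRL and for 6 of 9 in AAKO, against 22.7% and 42.5% of all tested genes. The median difference of the 9 was -0.81 in CTRL and -1.50 in AAKO, and the median over all tested genes was -0.02 and -0.08.

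With CL316243 against fed mice, Cxcl13 and Cxcl16 were the called members in CTRL, and Cxcl1, Cxcl16, Ccl2 and Ccl9 in AAKO. In CTRL mice 2 of 9 were lower and none was higher, where 23.1% of all genes were called, 12.5% lower and 10.5% higher. In AAKO mice 3 were lower and 1 was higher, where 31.3% were called, 15.5% lower and 15.8% higher. CL316243 and fed values did not overlap for 0 of 9 members in CTRL (12.1% of all genes) and for 3 of 9 in AAKO (15% of all genes).

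Between fasted and CL316243 livers, which share an experiment, 4 members were lower after fasting and 1 was higher in CTRL, where 36.8% of all genes were called, 17.8% lower and 19% higher. In AAKO 6 were lower and 1 was higher, where 59.9% were called, 33.7% lower and 26.2% higher. The values did not overlap for 4 of 9 in CTRL (17.7% of all genes) and for 2 of 9 in AAKO (37.3%). The same fed, fasted and CL316243 livers serve in several of these comparisons.

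The genotypes were compared within each condition. In fed mice none of 9 was called by limma, against 0.0742% of all genes, 0.0371% in either direction, and Ccl9 alone had an unadjusted p under 0.05. In fasted mice 3 of 9 were called, Ccl6 higher and Cxcl12 and Ccl9 lower in AAKO, against 49.3% of all genes, 21.4% higher and 27.9% lower. After CL316243, 3 of 9 were called, Cxcl1 and Ccl6 higher and Cxcl10 lower in AAKO, against 24.6% of all genes, 13.2% higher and 11.4% lower. The genotypes did not overlap for 0 of 9 members in fed (0.664% of all genes), 0 of 9 in fasted (21.3%) and 2 of 9 in CL316243 mice (11.4%).

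The genotype difference itself changed between fed and fasted mice for 2 of 9, Cxcl12 and Ccl9, both downward, where 33.7% of all genes were called, 19.1% downward and 14.6% upward. Between fed and CL316243 mice it was called for none of the 9, where 10.8% of all genes were called, 6.3% upward and 4.55% downward, and Cxcl10 alone had an unadjusted p under 0.05. Between CL316243 and fasted mice it was likewise called for none, where 32.1% were called, 12.9% upward and 19.2% downward, with Cxcl10 and Ccl9 at an unadjusted p under 0.05.

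**Figure D2:**
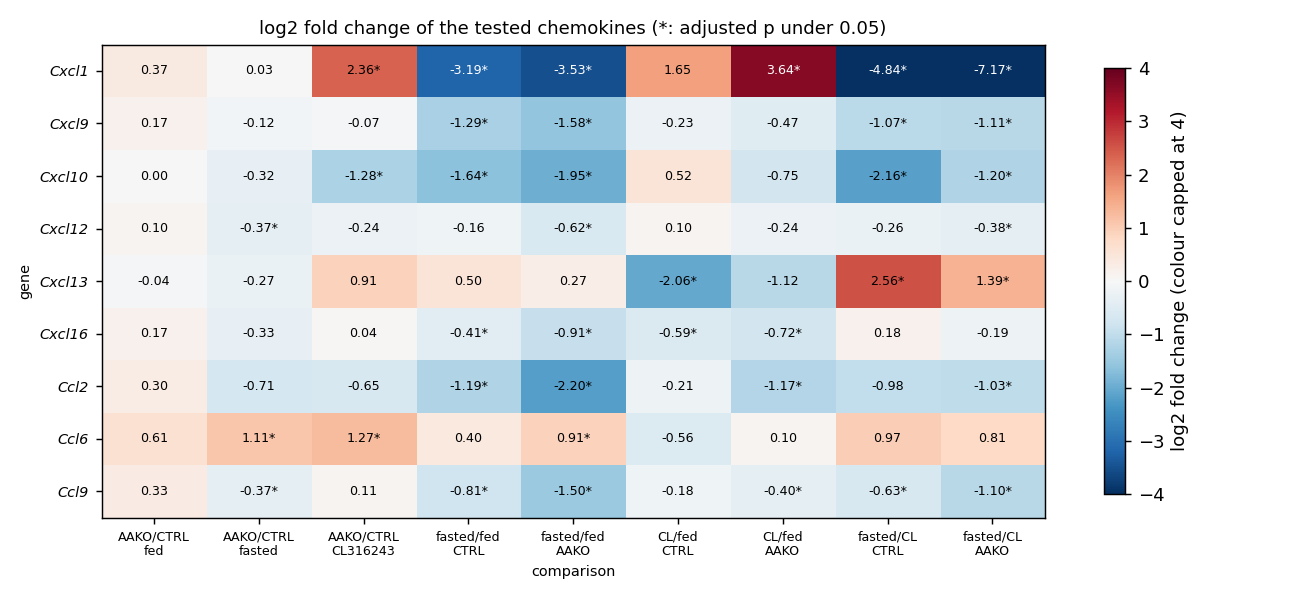
Log2 fold change of the 9 tested chemokines (rows) in 9 comparisons (columns); colour and number give the difference, colour is capped at 4, and an asterisk marks an adjusted p under 0.05. Most cells in the fasting columns are blue, and Cxcl1 reaches -7.17 for fasted against CL316243 in AAKO mice.

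Cxcl1, a neutrophil attractant, spanned the widest range of the 9 tested members. Its probe lies at chr5:91322080-91322139 of mm9. In fed CTRL livers the lowest, median and highest levels were 0.62, 1.60 and 2.90, and in fed AAKO livers they were -0.09, 0.80 and 5.30. Fasted CTRL livers gave -2.25, -1.64 and -0.64, and fasted AAKO livers -3.31, -1.35 and -0.71. After CL316243, CTRL livers gave -0.02, 4.05 and 5.01, and AAKO livers 3.70, 5.82 and 6.62. The fasted livers of both genotypes were thus the lowest and did not overlap with any fed or CL316243 liver, and the AAKO livers after CL316243 were the highest as a group but overlapped with the CTRL ones.

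Cxcl1 was lower in fasted than in fed livers by a difference of -3.19 ± 0.81 in CTRL (9.1-fold, adjusted p = 0.00169) and of -3.53 ± 0.81 in AAKO (11.5-fold, adjusted p = 0.000319). Against CL316243, the fasted level was lower by a difference of -4.84 ± 0.81 in CTRL (28.6-fold, adjusted p = 1.5e-05) and of -7.17 ± 0.81 in AAKO (144-fold, adjusted p = 4.56e-09). Within wash batches 1 and 2 the CTRL value was -4.12 and -5.56, the AAKO value was -7.63 and -6.48, and all 4 were called. The fasting decrease in CTRL was -2.45 within wash batch 1, where it was not called (adjusted p = 0.0934), and -3.92 within wash batch 2.

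After CL316243, Cxcl1 was 3.64 ± 0.81 above the fed level in AAKO (12.5-fold, adjusted p = 0.000791), while the difference of 1.65 ± 0.81 in CTRL was not called (adjusted p = 0.145). Without CTRL CL316243 replicate 4, the low liver of that group at -0.02, the CTRL difference was 2.25 (adjusted p = 0.0405). In AAKO the rise was 4.98 within wash batch 1 and 2.06 within wash batch 2, where it was not called (adjusted p = 0.352). Of the AAKO CL316243 livers, wash batch 2 held replicates 3 and 4 only. It also held AAKO fed replicates 1 and 6, the high fed livers at 5.30 and 5.18. AAKO exceeded CTRL after CL316243 by 2.36 ± 0.81 (5.13-fold, adjusted p = 0.0317), and that call was lost when any 1 of CTRL replicates 3 and 4 or AAKO replicates 4, 5 and 6 was left out (1.72 to 2.23), and within wash batches 1 and 2 (2.50 and 1.98). The genotype difference was not called as differing between CL316243 and fed mice (1.99 ± 1.15, adjusted p = 0.315) or between fasted and CL316243 mice (-2.33 ± 1.15, adjusted p = 0.123).

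The 2 high AAKO fed livers, replicates 1 and 6, read 5.30 and 5.18 for Cxcl1, and the other 4 lay between -0.09 and 1.36. The same 2 livers were the highest of their group for Ccl2 (-1.24 and -0.58), Ccl6 (2.12 and 2.67) and Cxcl16 (-0.48 and -0.65). Replicate 6 was the lowest of its group for Cxcl9 (-1.57), Cxcl10 (-0.97) and Cxcl12 (5.74). The AAKO and CTRL fed means of Cxcl1 were 1.99 ± 2.57 and 1.62 ± 0.76 (SD, n = 6), a difference of 0.37 ± 0.81 (adjusted p = 0.961) whose sign turned when replicate 1 (-0.24) or replicate 6 (-0.21) was left out. Across all 36 arrays, after subtraction of the group means, Cxcl1 correlated with Ccl2 at r = 0.61 and with Ccl6 at r = 0.47. These values describe arrays that share wash batches and slides. The 2 high AAKO fed livers are among these arrays, and their part in the correlations was not tested.

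Cxcl2, which shares the receptor of Cxcl1, was not well above background on 35 of the 36 arrays (probe at chr5:91334534-91334593, mm9). The exception was AAKO fed replicate 1, at -4.34, which was also the liver with the highest Cxcl1 of its group. No fold change is given for Cxcl2.

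Cxcl9 and Cxcl10, both induced by interferons, were lower in fasted livers. The Cxcl9 probe lies at chr5:92752191-92752250 and the Cxcl10 probe used here at chr5:92775781-92775840 of mm9. A second Cxcl10 probe, at chr5:92776616-92776675, was not well above background on any array.

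Cxcl9 had lowest, median and highest levels of -0.93, -0.31 and 0.53 in fed CTRL and -1.57, 0.03 and 0.84 in fed AAKO. Fasted CTRL livers gave -2.15, -1.62 and -0.80 and fasted AAKO livers -2.73, -1.46 and -0.82. CTRL livers after CL316243 gave -0.98, -0.42 and 0.31, and AAKO livers -1.15, -0.62 and 0.10. The fasted groups were lowest, with overlap at the edges of each comparison, and the genotypes overlapped in every condition. Cxcl9 was lower in fasted than in fed livers by differences of -1.29 ± 0.36 in CTRL (2.45-fold, adjusted p = 0.00403) and -1.58 ± 0.36 in AAKO (3-fold, adjusted p = 0.000303). Against CL316243 the differences were -1.07 (adjusted p = 0.0196) and -1.11 (adjusted p = 0.00901). The CTRL value against CL316243 was not called without CTRL fasted replicate 3 (-0.95) or CTRL CL316243 replicate 1 (-0.92), nor within wash batches 1 (-0.74) and 2 (-1.39). Fasting in CTRL was not called within wash batch 1 (-1.04, adjusted p = 0.0856), and the AAKO values within wash batch 2 were not called (-0.66 for fasting and -0.51 against CL316243).

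For Cxcl10 the fed livers ran from -1.14 over a median of -0.32 to 0.41 in CTRL and from -0.97 over -0.14 to 0.09 in AAKO. Fasted livers ran from -3.13 over -1.87 to -1.15 in CTRL and from -2.90 over -2.35 to -1.46 in AAKO. After CL316243 they ran from -0.30 over 0.23 to 0.78 in CTRL and from -1.83 over -0.90 to -0.62 in AAKO. All 6 AAKO livers after CL316243 were below all 6 CTRL livers, and no fasted liver reached the fed range of its genotype.

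Cxcl10 was lower in AAKO than in CTRL after CL316243 by a difference of -1.28 ± 0.32 (2.42-fold, adjusted p = 0.00311). Within wash batches 1 and 2 it was -1.46 and -0.92, the second not called (adjusted p = 0.291), and with the dim second probe averaged in it was -0.69 (adjusted p = 0.0609). The genotype difference in fed mice was 0.00 ± 0.32. The change in the genotype difference from fed to CL316243, -1.28 ± 0.45, missed the threshold (adjusted p = 0.0633). It passed without CTRL fed replicate 2 (-1.41), AAKO fed replicate 6 (-1.39) or AAKO fed replicate 2 (-1.38). Against fed, CL316243 gave 0.52 ± 0.32 in CTRL (adjusted p = 0.252) and -0.75 ± 0.32 in AAKO (adjusted p = 0.0698), the latter called without AAKO fed replicate 6 (-0.86).

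Cxcl10 was lower in fasted than in fed livers by differences of -1.64 ± 0.32 in CTRL (3.11-fold, adjusted p = 7.81e-05) and -1.95 ± 0.32 in AAKO (3.88-fold, adjusted p = 2.48e-06). Both were called within each wash batch. Against CL316243 the fasted level was lower by -2.16 ± 0.32 in CTRL (adjusted p = 2.03e-06) and -1.20 ± 0.32 in AAKO (adjusted p = 0.00156).

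**Figure D3:**
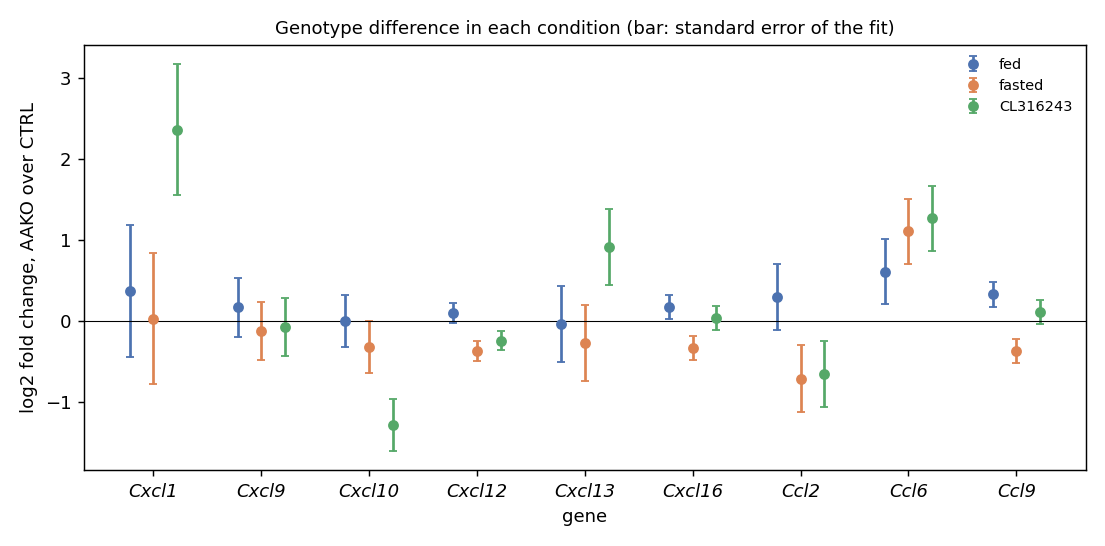
AAKO over CTRL log2 fold change (y axis) of each tested chemokine (x axis) in fed, fasted and CL316243 mice; points are fitted differences and bars are standard errors. After CL316243, Cxcl1 stands at 2.36 and Cxcl10 at -1.28, and Ccl6 is above 0 in all 3 conditions.

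Genes of the interferon gamma response, a list of 18 that were all tested, included called members in every comparison except the fed genotypes. With fasting, 10 of 18 were lower and 1 was higher in CTRL (22.4% and 20.8% of all genes), and 14 were lower and 1 was higher in AAKO (35.3% and 27.9%). The median difference was -0.56 and -1.31. With CL316243 in CTRL, 8 of 18 were higher and none was lower (10.5% and 12.5% of all genes), among them Irgm2 (1.70 ± 0.21, adjusted p = 6.28e-07) and Igtp (1.24 ± 0.21, adjusted p = 5.55e-05), GTPases that act on vacuoles of intracellular pathogens. In AAKO 5 were higher and 5 were lower (15.8% and 15.5% of all genes). Between genotypes after CL316243, 6 were lower and 2 were higher in AAKO (11.4% and 13.2% of all genes). Gbp6, a guanylate binding protein, differed by -1.52 ± 0.29 (adjusted p = 0.000191). In fasted mice 10 were lower and 2 higher in AAKO (27.9% and 21.4% of all genes). Igtp was at -2.32 ± 0.21 and Iigp1 at -2.26 ± 0.16 (adjusted p = 1.54e-10 and 1.57e-12), whereas Cxcl9 and Cxcl10 differed there by -0.12 and -0.32 and were not called. Ifng, which encodes interferon gamma itself, was not well above background in AAKO CL316243 livers, nor was Ido1 in CTRL CL316243 livers.

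Of all tested genes, the 3 whose levels over the 36 arrays correlated most with Cxcl9 were Gbp2 (r = 0.903), H2-DMb1 (r = 0.84) and Ciita (r = 0.784). For Cxcl10 they were Gbp6 (r = 0.902), Apol9a (r = 0.887) and Apol9b (r = 0.885), and for Cxcl1 they were D030018L15Rik (r = 0.936), Slc30a5 (r = 0.92) and Bcl3 (r = 0.92). For Ccl6 they were Csf2rb2 (r = 0.912), Slc2a3 (r = 0.906) and Slc15a3 (r = 0.899). These values describe likeness over arrays that share groups and batches.

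Cxcl12, which retains cells that carry Cxcr4, had 2 probes, at chr6:117131227-117131286 and chr6:117125026-117125085 of mm9. On the first, fed livers ran from 5.65 over a median of 5.81 to 5.96 in CTRL and from 5.74 over 5.89 to 6.13 in AAKO. Fasted livers ran from 5.17 over 5.61 to 6.23 in CTRL and from 5.01 over 5.29 to 5.54 in AAKO. After CL316243 the ranges were 5.59 to 6.09 (median 5.92) in CTRL and 5.39 to 6.00 (median 5.71) in AAKO. The fasted AAKO livers were the lowest group and did not overlap with fed AAKO livers.

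In AAKO, Cxcl12 was lower with fasting by a difference of -0.62 ± 0.12 (1.54-fold, adjusted p = 2.78e-05) and was below CL316243 by -0.38 ± 0.12 (adjusted p = 0.00606). Fasted AAKO livers were below fasted CTRL livers by -0.37 ± 0.12 (adjusted p = 0.0103), and the genotype difference changed with fasting by -0.47 ± 0.17 (adjusted p = 0.0301). On the second probe these last values were -0.64 ± 0.17 (adjusted p = 0.00217) and -0.76 ± 0.24 (adjusted p = 0.0138). Fasting in CTRL was called on the second probe (-0.53, adjusted p = 0.0113) and not on the first (-0.16, adjusted p = 0.302). The first probe's fasted genotype call was lost without CTRL fasted replicate 5 (-0.26), and the interaction call without that liver (-0.36), CTRL fed replicate 2 (-0.43), AAKO fed replicate 3 (-0.43) or AAKO fasted replicates 2 (-0.44) or 6 (-0.40). Within wash batch 2 neither was called (-0.09 and -0.13), nor was the interaction under quantile scaling, median scaling or the authors' table.

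Cxcl13, the B cell attractant of lymphoid follicles, was lowest after CL316243 (probe at chr5:96389861-96389920, mm9). Fed livers ran from -3.50 over a median of -2.07 to -1.39 in CTRL and from -2.44 over -2.23 to -2.03 in AAKO. Fasted livers ran from -2.84 over -1.36 to -1.05 in CTRL and from -3.59 over -2.28 to 0.22 in AAKO. After CL316243 they ran from -4.76 over -4.40 to -3.15 in CTRL and from -4.02 over -3.27 to -2.78 in AAKO. Fasted and CL316243 livers did not overlap in CTRL, and the fasted AAKO group had the widest spread (SD 1.54).

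In CTRL, Cxcl13 was lower in CL316243 than in fed livers by a difference of -2.06 ± 0.47 (4.17-fold, adjusted p = 0.0015). In AAKO the difference was -1.12 ± 0.47, with groups that did not overlap but an adjusted p of 0.0688. This AAKO difference was called in a fit of only the groups compared (-1.11, adjusted p = 0.00209). It was not called within wash batches 1 (-0.96) and 2 (-1.32). Fasted livers were above CL316243 livers by 2.56 ± 0.47 in CTRL (5.91-fold, adjusted p = 4.9e-05) and by 1.39 ± 0.47 in AAKO (adjusted p = 0.0115). The AAKO call was lost without AAKO fasted replicate 2 (0.92) or 3 (1.08), the 2 livers at 0.22 and -0.51. The genotype difference after CL316243, 0.91 ± 0.47, was not called (adjusted p = 0.165), nor was its change from fed mice, 0.94 ± 0.66 (adjusted p = 0.433). In a fit of only the groups compared, the genotype difference after CL316243 was called (0.97, adjusted p = 0.0346). Within wash batches 1 (1.39) and 2 (0.37) it was not.

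Cxcl16, a membrane-bound chemokine whose receptor is Cxcr6, was highest in fed livers. On the probe at chr11:70267780-70267839 of mm9, fed livers ran from -1.23 over a median of -0.85 to -0.62 in CTRL and from -0.86 over -0.76 to -0.48 in AAKO. Fasted livers had medians of -1.26 and -1.67, and CL316243 livers medians of -1.53 and -1.46, in CTRL and AAKO respectively. In AAKO neither the fasted nor the CL316243 livers overlapped with the fed ones. Fasted livers were below fed ones by differences of -0.41 ± 0.15 in CTRL (adjusted p = 0.0224) and -0.91 ± 0.15 in AAKO (adjusted p = 2.12e-06). CL316243 livers were below fed ones by -0.59 ± 0.15 (adjusted p = 0.00317) and -0.72 ± 0.15 (adjusted p = 0.000271). The second probe, at chr11:70269481-70269540, gave -1.02, -1.14, -1.04 and -1.06 in the same order, all called.

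The 2 Cxcl16 probes differed in sign for the genotypes in fasted mice, with -0.33 ± 0.15 on the first (adjusted p = 0.063) and 0.09 ± 0.18 on the second (adjusted p = 0.701). The change of the genotype difference with fasting was -0.50 ± 0.21 (adjusted p = 0.0595) and -0.11 ± 0.25 (adjusted p = 0.771). On the first probe both passed the threshold without CTRL fasted replicate 1 or 2 or AAKO fasted replicate 1 or 3 (-0.42 to -0.39 and -0.59 to -0.56), and the second also without CTRL fed replicate 6 (-0.55). Fasting in CTRL was lost on the first probe without CTRL fasted replicates 1 (-0.33) or 2 (-0.32) or CTRL fed replicate 6 (-0.36), and was 0.00 within wash batch 1.

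Ccl2, the monocyte attractant, was lower after fasting (probe at chr11:81850650-81850709, mm9). Fed livers ran from -2.87 over a median of -2.44 to -0.76 in CTRL and from -2.79 over -2.12 to -0.58 in AAKO. Fasted livers ran from -4.55 over -3.17 to -2.80 in CTRL and from -4.66 over -4.06 to -3.67 in AAKO, and CL316243 livers had medians of -2.73 and -2.98. Fasted and fed livers overlapped in CTRL and did not in AAKO. The fasting differences were -1.19 ± 0.41 (adjusted p = 0.0189) and -2.20 ± 0.41 (4.6-fold, adjusted p = 2.4e-05), and the AAKO value was called in both wash batches. The CTRL call was lost without CTRL fed replicate 2 (-0.89) or CTRL fasted replicate 2 (-0.95) and within either wash batch (-1.08 and -1.31).

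In AAKO, Ccl2 was also below fed after CL316243 (-1.17 ± 0.41, adjusted p = 0.0303) and lower in fasted than in CL316243 livers (-1.03 ± 0.41, adjusted p = 0.0323). The first call was lost without AAKO fed replicates 1 (-1.04) or 6 (-0.92) or AAKO CL316243 replicates 2 (-0.88) or 3 (-1.13). The second was lost without AAKO fasted replicates 3 (-0.92) or 6 (-0.98) or AAKO CL316243 replicates 4 (-1.01), 5 (-0.91) or 6 (-0.87), and was -0.55 with the authors' table (adjusted p = 0.136). Neither was called within wash batch 1 (-0.75 and -1.21) or 2 (-1.62 and -0.83), nor was the first in a fit of only the groups compared (-1.11). The genotypes differed in fasted mice by -0.71 ± 0.41, which was not called (adjusted p = 0.162), and neither was the interaction with fasting, -1.01 ± 0.58 (adjusted p = 0.19).

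Ccl6, a CC chemokine of mouse myeloid cells, was higher in AAKO than in CTRL in fasted mice and after CL316243 (probe at chr11:83401997-83402056, mm9). Fed livers ran from 0.58 over a median of 1.05 to 2.05 in CTRL and from 1.40 over 1.61 to 2.67 in AAKO. Fasted livers ran from 0.47 over 1.40 to 3.44 in CTRL and from 1.26 over 2.89 to 3.41 in AAKO. After CL316243 they ran from -0.74 over 0.98 to 1.25 in CTRL and from 1.32 over 1.70 to 2.75 in AAKO. After CL316243 every AAKO liver was above every CTRL liver, and the other conditions overlapped.

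The genotype differences of Ccl6 were 0.61 ± 0.40 in fed (adjusted p = 0.817), 1.11 ± 0.40 in fasted (2.16-fold, adjusted p = 0.0205) and 1.27 ± 0.40 in CL316243 mice (2.41-fold, adjusted p = 0.019). The change of the difference from fed was not called for fasting (0.51 ± 0.56, adjusted p = 0.531) or for CL316243 (0.66 ± 0.57, adjusted p = 0.545). The fasted call was lost without CTRL fasted replicate 1 (0.83), 4 (0.93) or 6 (0.94), and the CL316243 call without CTRL CL316243 replicate 4 (1.02) or AAKO CL316243 replicate 6 (1.05). Within wash batches 1 and 2 the values were 0.62 and 1.61 in fasted mice, neither called, and 1.65 and 0.66 after CL316243, the first called. In AAKO, Ccl6 was 0.91 ± 0.40 higher in fasted than in fed livers (adjusted p = 0.0467). That call was lost when any 1 of 10 of the 12 livers was left out (0.77 to 0.94), namely AAKO fed replicates 1 to 5 and AAKO fasted replicates 1 to 5.

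In fasted mice, 9 of 14 neutrophil markers were higher and none was lower in AAKO than in CTRL (21.4% and 27.9% of all genes). Retnlg, well above background on 5 of 6 fasted CTRL arrays, differed there by 3.85 ± 1.01 (adjusted p = 0.00192) and S100a8 by 3.61 ± 1.02 (adjusted p = 0.00367), both abundant in neutrophils, while Ly6g differed by -0.27 ± 0.12 (adjusted p = 0.0533). The median difference of the 14 in fasted mice was 1.81. Their summed level, in which the brightest probes weigh most, ran from 6.81 to 7.46 in fasted CTRL and from 7.19 to 7.82 in fasted AAKO livers. After CL316243, 1 of 14 was higher in AAKO (13.2% of all genes), with sums of 6.70 to 6.98 in CTRL and 6.85 to 7.09 in AAKO. Of the 12 Kupffer cell and macrophage markers, 2 were higher in AAKO in fasted mice (21.4% of all genes) and none after CL316243 (13.2%). The part of these cells in the Ccl6 differences was not tested. In whole liver, fewer cells of a type and less RNA per cell cannot be told apart.

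Ccl9, a CC chemokine encoded near Ccl6, with its probe at chr11:83388223-83388282 of mm9, was lower in fasted livers. Fed livers ran from 3.33 over a median of 3.48 to 3.68 in CTRL and from 3.58 over 3.81 to 4.11 in AAKO. Fasted livers ran from 2.30 over 2.68 to 3.02 in CTRL and from 1.53 over 2.39 to 3.04 in AAKO, and CL316243 livers from 3.02 over 3.30 to 3.62 and from 3.24 over 3.38 to 3.50. Fed and fasted livers did not overlap in either genotype, and AAKO livers after CL316243 varied least (SD 0.09).

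Ccl9 was lower in fasted than in fed livers by differences of -0.81 ± 0.15 in CTRL (1.75-fold, adjusted p = 4.29e-05) and -1.50 ± 0.15 in AAKO (2.84-fold, adjusted p = 1.96e-10). The difference between these, -0.70 ± 0.21, was called (adjusted p = 0.00975) and kept its call when each liver was left out (-0.83 to -0.56), but not within wash batch 2 (-0.41, adjusted p = 0.338; -0.99 within wash batch 1). Against CL316243, fasted levels differed by -0.63 ± 0.15 in CTRL (adjusted p = 0.00106) and -1.10 ± 0.15 in AAKO (adjusted p = 1.39e-07). The genotype difference was 0.33 ± 0.15 in fed (adjusted p = 0.706) and -0.37 ± 0.15 in fasted mice (adjusted p = 0.0394). The fasted call was lost without CTRL fasted replicates 2 (-0.32), 3 (-0.35) or 5 (-0.32) or AAKO fasted replicates 1 (-0.37), 3 (-0.29) or 6 (-0.23). It was -0.70 within wash batch 1 and -0.04 within wash batch 2 (adjusted p = 0.889), and was not called under median scaling (-0.33), without the filter on dim probes, without the wash batch in the fit or with only the groups compared (-0.37 in each). In AAKO, Ccl9 was -0.40 ± 0.15 below fed after CL316243 (adjusted p = 0.0388), which was lost without any 1 of AAKO fed replicates 1, 2, 4 and 5 and AAKO CL316243 replicates 1, 3, 4 and 6 (-0.41 to -0.34).

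Markers of several cell types were lower in some of the same comparisons. Of all tested genes, 12.5% were lower and 10.5% higher with CL316243 in CTRL, and 15.5% and 15.8% in AAKO. With fasting, 22.4% were lower and 20.8% higher in CTRL, and 35.3% and 27.9% in AAKO. The fasting counts of endothelial markers in both genotypes lie near these shares or below them. So do those of monocyte and dendritic cell and of T and NK cell markers in CTRL. With CL316243, 8 of 12 Kupffer cell and macrophage markers were lower in CTRL and 10 in AAKO, with Adgre1 at -1.11 ± 0.37 and -1.46 ± 0.37 (adjusted p = 0.026 and 0.00256). With fasting, 4 and 6 were lower, in CTRL and AAKO. Their summed level ran from 5.57 to 6.75 in fed CTRL, 4.97 to 6.68 in fasted CTRL and 4.38 to 6.04 in CTRL CL316243 livers. In AAKO it ran from 6.23 to 7.01 in fed, 4.40 to 6.58 in fasted and 5.44 to 6.10 in CL316243 livers. Liver endothelial markers were lower with CL316243 for 9 of 10 in CTRL and 6 of 10 in AAKO, with sums of 5.37 to 5.94 in fed CTRL and 4.43 to 5.34 in CTRL CL316243 livers. With fasting, 2 of these 10 were lower and 1 was higher in CTRL, and 3 were lower and 3 higher in AAKO. Monocyte and dendritic cell markers were lower with fasting for 2 of 9 in CTRL and 7 of 9 in AAKO, and none was higher. Their sums in AAKO were 5.77 to 6.55 in fed and 4.17 to 5.82 in fasted livers. T and NK cell markers were lower with fasting for 2 of 9 in CTRL, where 1 was higher. In AAKO 5 of 9 were lower and none was higher. The summed T and NK level was higher with fasting in CTRL, at 4.88 to 5.39 in fed and 5.51 to 5.85 in fasted livers. In AAKO this sum overlapped, at 4.76 to 5.49 in fed and 4.97 to 5.23 in fasted livers. Hepatic stellate markers were lower with CL316243 for 5 of 10 in CTRL, where 1 was higher, and for 4 of 10 in AAKO. The part of these cells in the chemokine differences was not tested. Hepatocyte markers summed to between 11.94 and 12.39 on all arrays, and Alb was well above background on all of them. Adipocyte markers summed to 4.14 to 7.18 in fasted CTRL and 2.87 to 5.19 in fasted AAKO livers, against 0.49 to 0.98 and -0.05 to 0.48 in fed ones. Of the 6 markers, 2 were higher and 1 was lower with fasting in CTRL, and 2 were higher and none was lower in AAKO. Their median differences were only 0.06 and 0.25, and the highest were 5.90 and 4.98. After CL316243 the adipocyte markers summed to 1.23 to 3.27 in CTRL and 0.17 to 0.92 in AAKO livers, which did not overlap. Between these genotypes 1 of 6 was lower in AAKO (11.4% of all genes). Their part in the fasting, CL316243 and genotype differences was not tested.

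**Figure D4:**
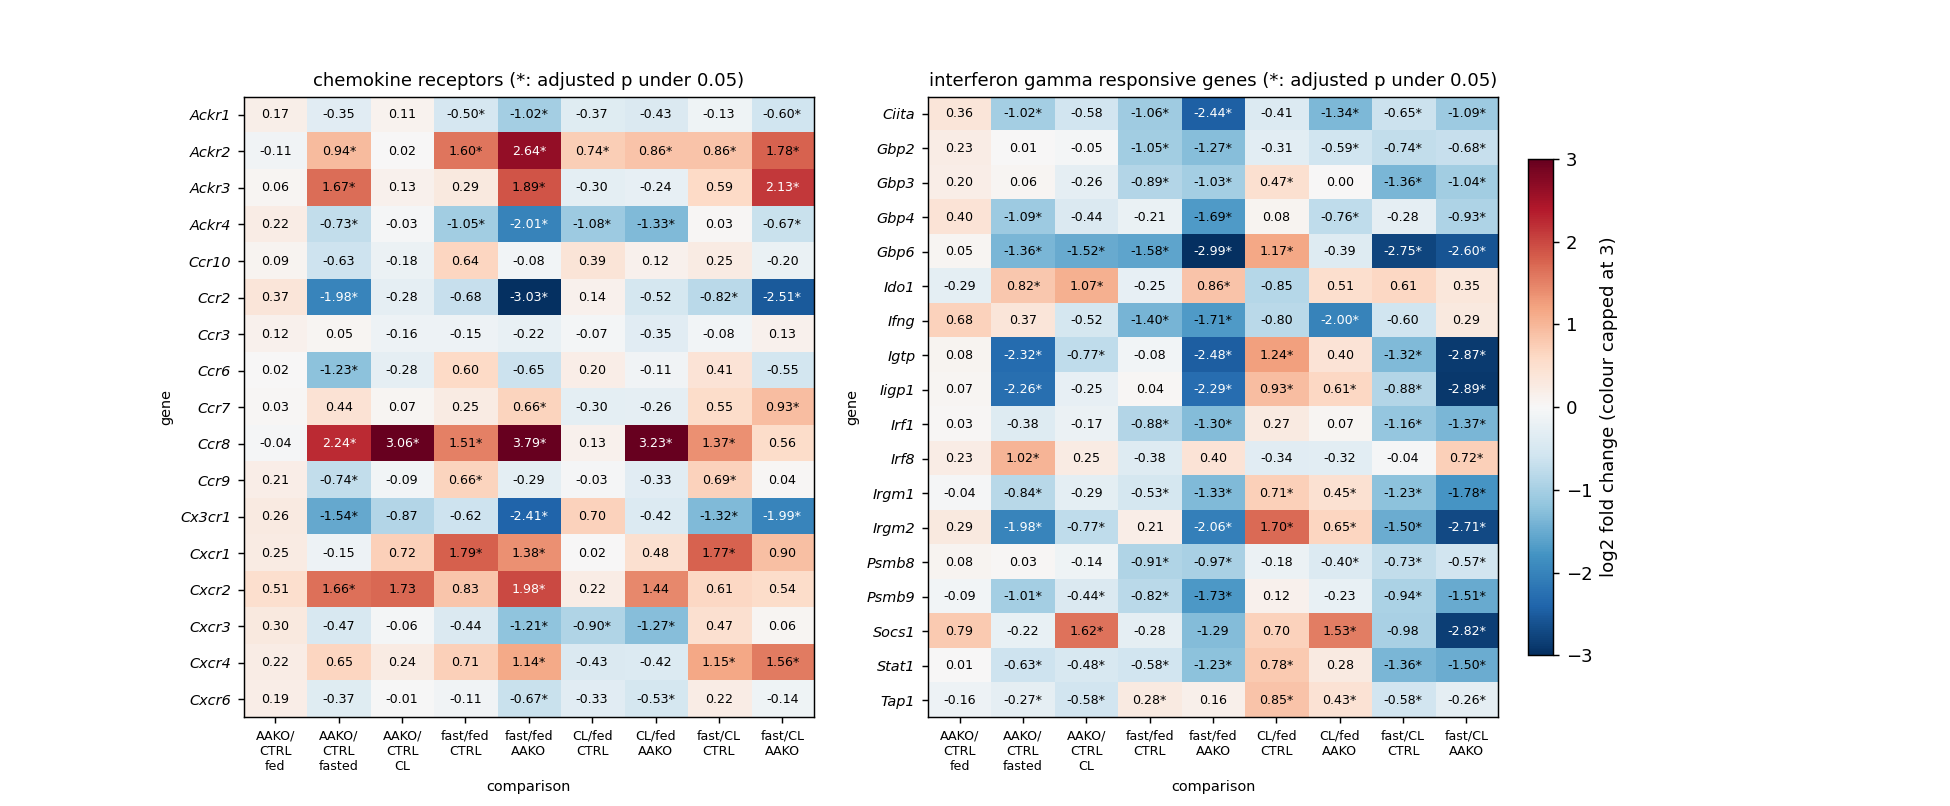
Log2 fold changes of 17 of the 18 tested chemokine receptors (left) and 18 interferon gamma responsive genes (right) in 9 comparisons (columns); an asterisk marks an adjusted p under 0.05 and colour is capped at 3. Ccr2, Cxcr1, Cxcr4, Ido1 and Ifng were not well above background in at least 1 group, so their fitted values there are no measured folds, and other genes such as Cxcr2 were well above background on only some arrays of a group. Ccr8 is at 3.06 for AAKO over CTRL after CL316243.

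Of 22 chemokine receptor genes, 18 were tested. In fasted mice 4 were higher and 6 lower in AAKO than in CTRL, where 21.4% of all genes were called higher and 27.9% lower, a share near that of the list. Ccr8, a receptor of T cells and macrophages, was at 2.24 ± 0.33 (adjusted p = 9.68e-07) and Ackr3, which scavenges Cxcl12, at 1.67 ± 0.27 (adjusted p = 6.26e-06). Ccr2, the receptor of Ccl2, was among the lower ones and was not well above background on any fasted AAKO array, against 5 of 6 fasted CTRL arrays. After CL316243 1 of 18 was called, against 24.6% of all genes: Ccr8, at 3.06 ± 0.33 higher in AAKO (adjusted p = 3.4e-08). For the change of the genotype difference from fed to CL316243, Ccr8 alone of the 18 was called (3.10 ± 0.46, adjusted p = 2.76e-05), against 10.8% of all genes. Cxcr2 and Cxcr3 are given as receptors of members, a choice made after their values were seen. Cxcr2, the receptor of Cxcl1, was well above background on 4 of 6 CTRL and 6 of 6 AAKO arrays after CL316243, and its difference there was not called (adjusted p = 0.0701). Cxcr3, that of Cxcl9 and Cxcl10, was lower with CL316243 than in fed livers by -0.90 ± 0.29 in CTRL (adjusted p = 0.0234) and -1.27 ± 0.29 in AAKO (adjusted p = 0.00115).

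Among 17 tested genes of NF-kB feedback and the early response, Bcl3, a nuclear partner of NF-kB, fell with fasting by differences of -1.83 ± 0.24 in CTRL (adjusted p = 1.66e-07) and -1.53 ± 0.24 in AAKO (adjusted p = 1.22e-06). After CL316243, Bcl3 was 1.55 ± 0.24 higher in AAKO than in CTRL (adjusted p = 1.14e-05). Of the whole list with fasting, 1 was higher and 2 were lower in CTRL (20.8% and 22.4% of all genes). In AAKO 9 were higher and 4 lower with fasting (27.9% and 35.3%). In fasted mice 11 were higher and 3 lower in AAKO than in CTRL (21.4% and 27.9% of all genes), with Ier3 at 2.00 ± 0.30 (adjusted p = 1.46e-06) and Vcam1 at 1.65 ± 0.31 (adjusted p = 4.81e-05), whereas Cxcl1 differed by 0.03 ± 0.81. After CL316243, 4 were higher and 2 lower in AAKO than in CTRL (13.2% and 11.4% of all genes).

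Of 27 other chemokines on the array, 17 were tested. With fasting in CTRL 3 of 17 were lower and none was higher (43.2% of all genes called), with Ccl24, which draws eosinophils, at -1.15 ± 0.28 (adjusted p = 0.00108). In AAKO 5 were lower and 2 were higher with fasting (63.3%), and 5 were lower and none was higher with CL316243 (31.3%). Between genotypes none of 17 was called in fed mice (0.0742% of all genes called) or after CL316243 (24.6%). In fasted mice 2 were higher and 4 were lower in AAKO (49.3% of all genes called), with Pf4, a platelet chemokine, at 1.03 ± 0.25 (adjusted p = 0.000814) and Ccl27a at -1.04 ± 0.15 (adjusted p = 5.83e-07). Of 6 tested genes that process or present chemokines, Adam17, a protease that releases membrane proteins, was lower with fasting by -0.66 ± 0.08 in CTRL (adjusted p = 4.75e-08) and -0.76 ± 0.08 in AAKO (adjusted p = 7.06e-10).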

How the data were processed

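Liver RNA (200 ng, labelled with Cy3) was read on 36 one-colour Agilent arrays. The deposited scanner files hold processed signal intensity from Agilent Feature Extraction 10.10.1.1, as their headers state, with probe positions on mm9. The authors also deposited a table of log2 values for 36898 probes, used as an alternative. Its columns correlated with their own arrays at r of at least 0.99944 and the sorted values were the same in all columns of a group. Column medians were 6.91 in CTRL fed, 6.93 in AAKO fed, 6.97 in CTRL fasted, 7.01 in AAKO fasted, 6.91 in CTRL CL316243 and 6.88 in AAKO CL316243. The method is not given in the sources used here.

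Spots with an outlier mark (0.127%) were left out, each array was scaled to its 75th percentile and log2 was taken. The brightest probe stood for a gene, and 5 of 6 arrays of a group had to be well above background. The 6 groups were fitted with the wash batch (limma 3.58.1, R 4.3.3, eBayes) and adjusted over all tested genes. The fit was tested on simulated data, and the number of arrays limits the precision. All members are described. Of each list, called genes with the highest or lowest fold change (at most 2 each) and genes that stand for a cell type are named. Likeness is Pearson's r. The members, lists and tests were chosen with earlier results of these data known. Alternatives covered background, scaling, filter, probe choice, wash batch, slide, replicate number, promoter window and each array left out. The result of 1 chemokine receptor is not reported here, although the counts of its list include it.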

Additional observations from a re-analysis of the deposited data

Results flagged for a closer look

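In 60 combinations of member and group, 5 had 1 liver whose gap to the nearest other was more than 0.625 of the range of its group, and chance alone marks about 1 in 20. For Cxcl1, AAKO fasted replicate 3 was at -3.31. Cxcl13 in CTRL CL316243 replicate 3 was at -3.15, above the other 5. Cxcl2 gave AAKO fed replicate 1 (-4.34, the only array well above background), AAKO fasted replicate 1 (-8.10) and CTRL fasted replicate 5 (-6.99).

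The genotype difference changed between fed and fasted mice for Cxcl12 (-0.47) and Ccl9 (-0.70), by the interaction term of the fit. Of all tested genes 33.7% were called for this change, 19.1% downward. Neither member was called within wash batch 2 (-0.13 and -0.41).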

How the results depend on the processing

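Of 40 called differences of single members, none changed sign under any alternative. Normexp background correction, the stricter filter, the slide as a random block and eBayes with trend kept all 40 calls. Quantile scaling, median scaling and a fit without wash batch lost 2 each, no filter 4, the fit of the authors' values 3, the slide as a fixed factor 1, the mean of all probes 1, and fits of only the groups compared 6. Within wash batch 1, with fewer arrays, 12 were lost, and within wash batch 2, 22. Of the AAKO CL316243 livers, wash batch 2 held replicates 3 and 4 only.

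The number of members called moved as follows, and the cause was not tested. Fits within a wash batch had fewer arrays. The interaction of genotype and fasting (2 called) had 1 under quantile scaling, median scaling and the authors' table, and 0 within wash batch 2. The interaction with CL316243 (0) had 1 under normexp, the authors' table and fits of only the groups compared. The interaction of genotype between fasted and CL316243 (0) had 2 within wash batch 1. Genotype in fasted (3) had 0 within wash batch 2 and in the fit of only those groups. Genotype after CL316243 (3) had 0 within wash batch 2. Fasting in CTRL (6) had 2 within wash batch 1. CL316243 in CTRL (2) had 1 within each wash batch, and in AAKO (4) it had 1 within wash batch 2. Fasted against CL316243 in AAKO (7) had 2 within wash batch 2.

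With each array left out in turn, the counts ran from 0 to 0 for genotype in fed, 1 to 3 for genotype in fasted and after CL316243, 4 to 7 for fasting in CTRL, 7 to 8 for fasting in AAKO, 2 to 3 and 2 to 4 for CL316243 in CTRL and AAKO, 4 to 7 and 5 to 7 for fasted against CL316243, 1 to 3 for the interaction with fasting and 0 to 1 for the other interactions. Some uncalled differences changed sign. Cxcl1 between fed genotypes was -0.82 within wash batch 1, and ran from -0.24 to 0.87 with each array left out, below 0 without AAKO fed replicate 1 (-0.24) or 6 (-0.21). Cxcl16 between fasted genotypes was 0.00 within wash batch 2, Cxcl12 for fasting in CTRL was 0.01 and the Ccl6 interaction with fasting -0.17 within wash batch 1.

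The replicate numbers did not pair the samples: of 90 pairs of groups' same-numbered arrays, 16 correlated above 0.1 (median 0.00356), and with the replicate block all 40 calls were kept. With 200 bases in place of 250 before the start, the interferon response type pattern was found before 0 members in place of 1, since the Cxcl10 match lies farther out, and the other 8 patterns gave the same counts. Signal over background limits Cxcl2 and the second Cxcl10 probe, which have no measured differences.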
